A study of Mus musculus with 9 samples.

Results

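The 7 genes followed here are tied to the type 2 branch of helper T cell biology and were measured in 9 mouse T helper cell libraries: Gata3, Ecm1, Il4ra, Areg, Il4, Il13 and Stat6. They were picked by symbol for their place in type 2 biology, with earlier results of these data known, and all 7 were found among the 22017 genes of the deposited table. Naive T cells (genotype WT) from spleens of C57BL/6 mice were activated through CD3 and CD28 for 3 days, moved to IL-2 on day 5, activated again on day 7, and lysed for RNA on day 10. The 3 groups, of 3 libraries each, differed in the medium. Th1 cells (labelled Th1-1) were kept in the Th1 condition throughout, with IL-12 at 10 ng/mL and an antibody against IL-4. Th17 cells (Th17-17) were kept in the Th17 condition throughout, with TGF-b at 1 ng/mL, IL-6 at 20 ng/mL, IL-1b at 10 ng/mL and antibodies against IFN-g, IL-12 and IL-4. Th17-derived Th1 cells (Th17-1) began in the Th17 condition and were switched to the Th1 condition at the second activation. All 3 groups were thus grown with anti-IL-4, and none of them is a type 2 culture. Th1 and Th17-derived Th1 cells shared the medium from the second activation on and differed in the first, whereas Th17 cells differed from both in the medium at harvest. In comparisons with Th17 cells, lineage and the cytokines present at harvest cannot be told apart. Whether the replicates are separate cultures or animals is not stated in the labels, so p-values measure the spread between these libraries, which may be technical.

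Type 2 helper cells make IL-4, IL-5 and IL-13, the cytokines of allergy and of defence against worms. IL-4 and IL-13 bind receptors that contain the IL-4R alpha chain, the receptor activates the transcription factor STAT6, and STAT6 raises GATA3, the lineage factor that opens the cytokine locus. Both media used here block IL-4, and T-bet, the Th1 factor, is known to oppose GATA3. ECM1 is a secreted glycoprotein of the extracellular matrix that is also made by type 2 helper cells, and amphiregulin, encoded by Areg, is an epidermal growth factor family ligand made by several kinds of T cell during tissue repair.

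The genes did not move together. Ecm1 was highest in Th17-derived Th1 cells, at 185 ± 21.8 FPKM (FPKM, fragments per kilobase of transcript scaled to the mapped fragments of the library; mean ± SD, n = 3 here and below), against 43.8 ± 15.9 FPKM in Th17 and 12.3 ± 5.53 FPKM in Th1 cells. Il4ra and Areg were also highest in every Th17-derived Th1 library. Gata3 stood at about the same low level in each group, Il4 was lowest in Th1 cells, Il13 varied more within groups than between them, and Stat6 was nearly even. In all, 3 of the 7 genes had every Th17-derived Th1 library above the other 6 libraries, where 2.39% of the 10538 genes tested did, and 0 of the 7 had every one below, where 3.34% did. Areg is among the 3 by the filter itself, since it was tested only through its 3 Th17-derived Th1 libraries, so nothing is read from this count. In bulk RNA, fewer cells that make a transcript and less transcript per cell cannot be told apart.

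**Figure D1:**
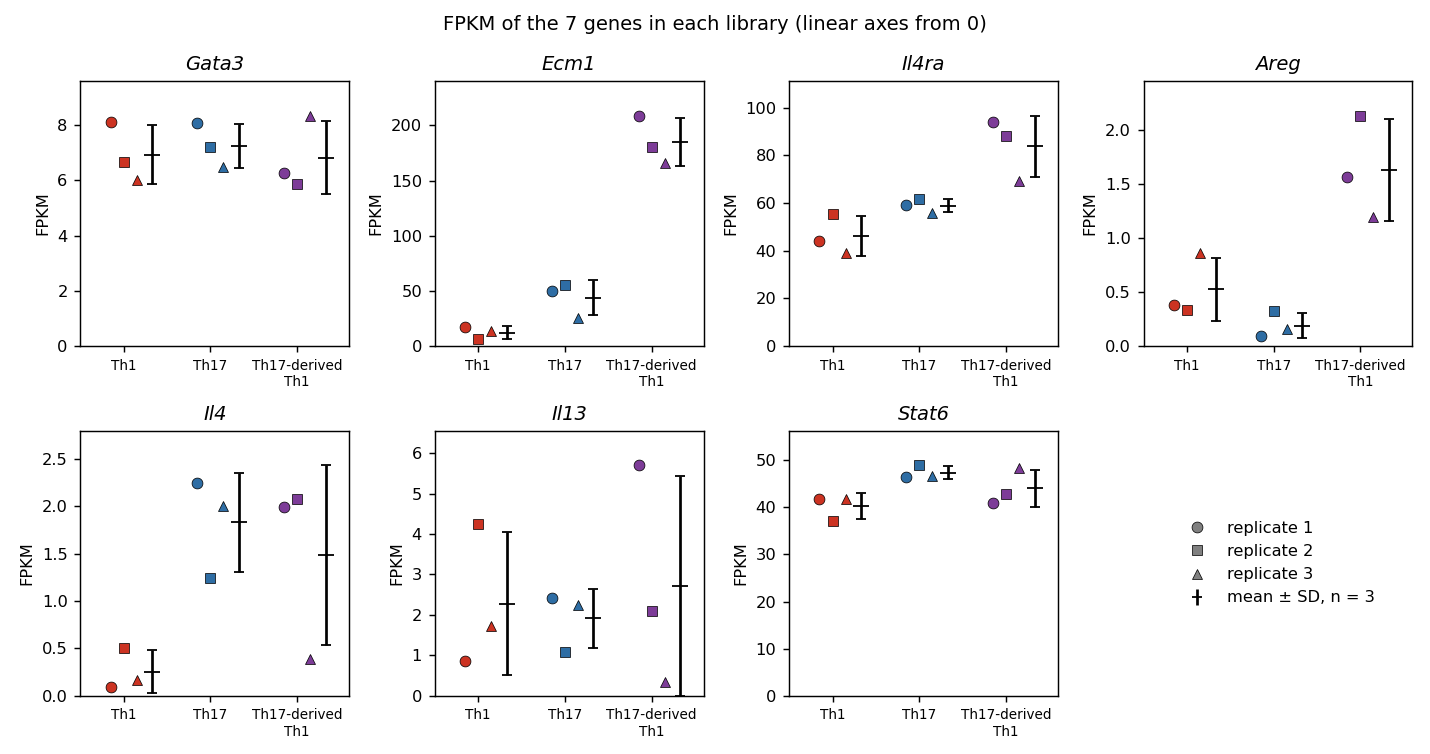
FPKM of each of the 7 genes (vertical axes, linear and starting at 0) in the 3 libraries of each group, with replicate numbers as symbols and the mean ± SD beside them. The 3 Th17-derived Th1 libraries lie above all others for Ecm1 (166 to 209 FPKM), Il4ra and Areg. For Gata3 they hold both the lowest and the highest value of all libraries.

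The libraries matched their labels for the lineage genes: Ifng was at 14.2 to 40.7 FPKM in Th17, 1005 to 2013 in Th1 and 717 to 990.3 in Th17-derived Th1 cells, and Il17f was at 7.58 to 8.77 FPKM in Th17 cells and at 0.408 or less in all others. T cell markers were present in every library, with a summed level of 1606 to 1899 FPKM over 10 genes. The labels do not give a CD4 gate, and Cd8a reached 104 to 141 FPKM in the 3 libraries numbered 3, against 15.3 to 54.9 in the other 6. Markers of mast cells, basophils and eosinophils were low: the 10 mast cell and basophil genes summed to 0.0494 to 1.47 FPKM and the 6 eosinophil genes to 0.0341 to 1.62 FPKM. Other lists were higher: 6 NK cell genes summed to 8.85 to 34.7 FPKM and 8 macrophage genes to 1.51 to 11.9 FPKM. Of the NK cell genes only Klra7, Klrb1c and Klre1 reached 1 FPKM in at least 3 libraries, and Ncr1 was at most at 0.0571 FPKM. Of the macrophage genes only Cd68 did so, while Csf1r, Adgre1 and Mrc1 were at most at 0.0109, 0.0583 and 0.0281 FPKM. The 6 dendritic cell genes summed to 1.92 to 9.03 FPKM and the 6 B cell genes to 0.876 to 4.04 FPKM. The part of such cells in any result was not tested. Of 8 stromal and endothelial genes only Pecam1, which T cells also express, reached 1 FPKM in 3 libraries. Col1a1, Col1a2, Col3a1 and Dcn, which define fibroblasts, did not pass 0.211 FPKM in any library, and Pdgfra was listed at 0 in all 9. Epcam, an epithelial gene, did not pass 0.780 FPKM, whereas Cdh1, another gene of that list, was at 17.8 to 29.7 FPKM in Th17 cells and at 2.39 or less elsewhere; its part in any result was not tested. The summed level of 6 neutrophil genes was highest where Ecm1 was, at 9.38 to 34.7 FPKM in Th17-derived Th1, 2.27 to 3.14 in Th1 and 0.0761 to 0.745 in Th17 cells. Nearly all of that sum was Ly6g, the only one of the 6 to pass the filter, while S100a8, S100a9 and Elane, which define neutrophils, were listed at 0 in all 9 libraries.

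All 3 comparisons were fitted in limma on log2(FPKM + 1) over all 10538 genes that had at least 1 FPKM in at least 3 libraries, with Benjamini-Hochberg adjustment over those genes and a threshold of 0.05. They share libraries with each other and are therefore not independent. All 7 genes passed the filter. Areg reached 1 FPKM only in the 3 Th17-derived Th1 libraries, and Il4 in none of the Th1 libraries, so these genes were tested only because some group was higher, and the counts below are a description. In Th1 against Th17 cells 0 of the 7 were higher and 2 were lower (Ecm1 and Il4), where 14% of all tested genes were higher and 28.9% lower (42.9% in all). In Th17-derived Th1 against Th17 cells 2 were higher (Ecm1 and Areg) and 0 lower, where 6.43% of all tested genes were higher and 9.49% lower (15.9% in all). In Th17-derived Th1 against Th1 cells 3 were higher (Ecm1, Il4ra and Areg) and 0 lower, where 5.67% were higher and 4.81% lower (10.5% in all). With median-ratio scaling of the libraries, which brought the median of all genes in Th1 against Th17 from -0.17 to -0.01, the balance of calls turned over: 2047 genes were higher and 1752 lower there, and 852 were higher and 498 lower in Th17-derived Th1 against Th17 cells. The 7 genes then gave 0 higher and 2 lower in the first of these and 3 higher and 0 lower in the other. Under the values as deposited, the median difference over the 7 genes was -0.23, 0.09 and 0.79 log2 units in that order, beside -0.17, -0.12 and 0.05 over all tested genes.

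**Figure D2:**
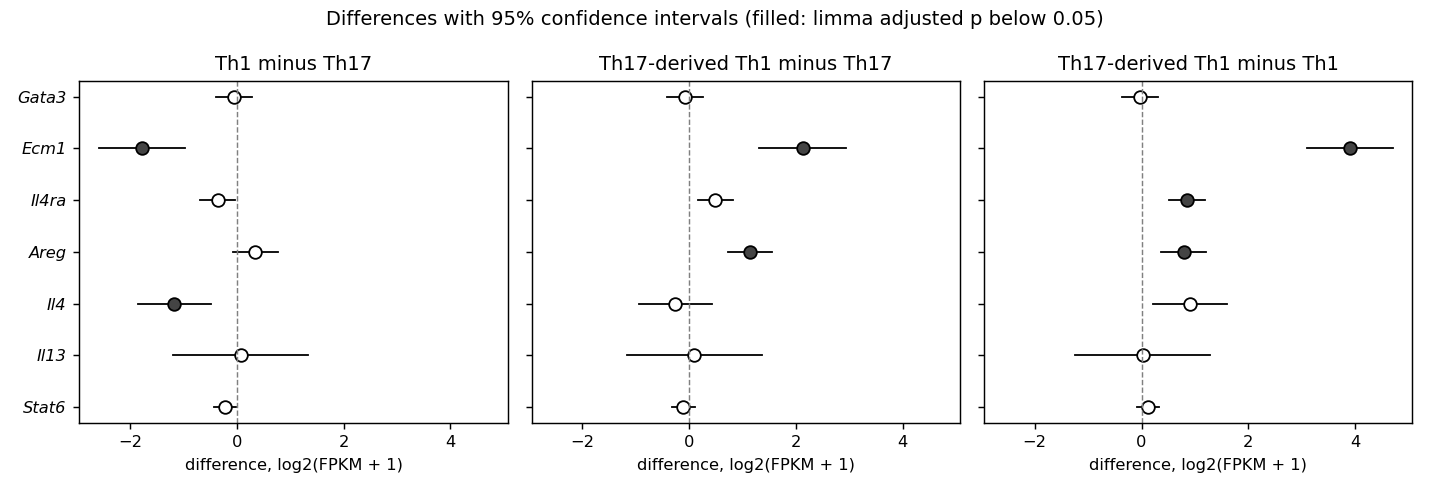
Difference of mean log2(FPKM + 1) of the 7 genes in each of the 3 comparisons (horizontal axis), with 95% confidence intervals from limma. Filled points passed an adjusted p of 0.05: Ecm1 in all 3 panels, Il4 in Th1 minus Th17, Areg in both panels with Th17-derived Th1 cells, and Il4ra in Th17-derived Th1 minus Th1.

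Ecm1 lies on the minus strand of chromosome 3 (95734147 to 95739569, GRCm38). In Th17-derived Th1 cells it was at 209, 180.2 and 166 FPKM in replicates 1, 2 and 3. In Th17 cells it was at 49.9, 55.7 and 25.7 FPKM, and in Th1 cells at 17.2, 6.31 and 13.3 FPKM. The 3 groups did not overlap. In rank order of level among the tested genes, Ecm1 moved from place 5219 in Th1 cells to 1680 in Th17 and 286 in Th17-derived Th1 cells. Over the 9 libraries the spread of its log2 value (SD 1.75) was larger than that of 99.6% of tested genes.

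Ecm1 was 15.0-fold higher in Th17-derived Th1 than in Th1 cells on the log2(FPKM + 1) scale (difference 3.90 ± 0.36 log2 units, SE, limma adjusted p = 0.000647). That was the largest positive difference of the 10538 genes tested. It kept that first place in 19 of 25 alternative settings and stood between the second and the fifth place in the other 6. Against Th17 cells Ecm1 was 4.35-fold higher (2.12 ± 0.36, adjusted p = 0.00483) and held place 68 among the positive differences. Th1 cells had less Ecm1 than Th17 cells by a log2 difference of -1.78 ± 0.36 (adjusted p = 0.00448), place 132 among the negative differences. Each of the 3 calls was kept in all 24 other fits at the same threshold, with Th17-derived Th1 minus Th1 ranging from 3.51 to 4.18, Th17-derived Th1 minus Th17 from 1.79 to 2.33, and Th1 minus Th17 from -2.22 to -1.40. Thus cells moved from the Th17 to the Th1 condition held more Ecm1 than cells kept in either condition.

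The 250 bases before the RefSeq start sites of the 3 genes that were highest in Th17-derived Th1 cells are shown because these genes share that pattern (RefSeq, GRCm38.p6). Letters in capitals are matches to a GATA motif (AGATAA as well as AGATAG, and likewise TGATAA together with TGATAG, both strands), a STAT6 motif (TTC and GAA with any 4 bases between them, which reads the same on both strands), an AP-1 motif (TGAGTCA or TGACTCA, both strands), a cyclic AMP response element (TGACGTCA, both strands) or a TATA box (TATAAA, gene strand only), chosen with the sequences and results in view.
Ecm1, minus strand, chr3:95739570-95739819: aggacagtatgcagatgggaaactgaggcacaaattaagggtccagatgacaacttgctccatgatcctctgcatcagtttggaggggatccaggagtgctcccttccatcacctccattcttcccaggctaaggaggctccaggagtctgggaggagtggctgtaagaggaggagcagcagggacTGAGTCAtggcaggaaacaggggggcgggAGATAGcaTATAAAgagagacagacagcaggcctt
Il4ra, plus strand, chr7:125552021-125552270: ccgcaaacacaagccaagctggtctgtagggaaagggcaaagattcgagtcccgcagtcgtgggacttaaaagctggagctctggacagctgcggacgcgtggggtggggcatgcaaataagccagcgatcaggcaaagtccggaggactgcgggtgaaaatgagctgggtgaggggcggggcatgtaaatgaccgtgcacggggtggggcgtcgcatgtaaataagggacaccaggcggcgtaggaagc
Areg, plus strand, chr5:91139349-91139598: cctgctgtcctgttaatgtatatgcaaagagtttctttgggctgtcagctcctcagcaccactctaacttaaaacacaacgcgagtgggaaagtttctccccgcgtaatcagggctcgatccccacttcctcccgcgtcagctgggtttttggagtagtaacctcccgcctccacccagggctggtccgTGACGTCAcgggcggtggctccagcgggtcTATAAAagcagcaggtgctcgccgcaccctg

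The Ecm1 window held AP-1 letters that begin 64 bases before the start site, GATA letters at 35 and TATA letters at 27. Of 32817 RefSeq windows of the same length, 4.46% held the AP-1 letters, 26.6% a GATA motif and 7.6% the TATA letters. The Areg window held a cyclic AMP response element at 61 bases (in 1.55% of windows) and TATA letters at 31, and the Il4ra window held none of the 5 motifs. Among the other members, Il13 had GATA letters at 81 and TATA letters at 29, the Il4 window at its upstream start site had STAT6 letters at 167 (in 5.85% of windows) and the window at its second start site had GATA letters at 80, and Gata3 and Stat6 had none. These matches describe letters in a short window and not sites in use. The Gata3 window (chr2:9878601-9878850) lies inside the GENCODE span of that gene, which begins at 9890034 on the minus strand. Bases before that more distant start were not searched. The Il4ra window, which ends at 125552270, likewise runs past the GENCODE start of its gene at 125552120.

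In type 2 helper cells ECM1 has been reported to act on exit from lymph nodes by way of IL-2 receptor signaling, KLF2 and S1PR1. Genes of that pathway did not share the order of Ecm1. Klf2, a factor that drives S1pr1, was at 76.5 to 159 FPKM in Th17, 37.6 to 51.1 in Th17-derived Th1 and 9.97 to 11.8 in Th1 cells, and S1pr1, the egress receptor gene, followed the same order, so both were lower in Th17-derived Th1 than in Th17 cells (log2 differences -1.48 and -1.10, limma adjusted p = 0.00457 and 0.019) while Ecm1 was higher. Il2ra, the inducible IL-2 receptor chain, was high in both groups harvested from the Th1 condition, at 392 to 557 FPKM in Th1 and 401.2 to 457 in Th17-derived Th1, against 80.2 to 121 FPKM in Th17 cells. Of 12 tested genes on this list, Ecm1 included, 3 were higher and 2 lower in Th17-derived Th1 than in Th17 cells, 4 were higher and 1 lower than in Th1 cells, and 4 were higher and 4 lower in Th1 cells than in Th17 cells. The list's median difference was -0.13, 0.20 and 0.23 log2 units in Th1 minus Th17, Th17-derived Th1 minus Th17 and Th17-derived Th1 minus Th1. Of all tested genes, in this order, 14% were higher and 28.9% lower, then 6.43% and 9.49%, then 5.67% and 4.81%. Ecm2, a related matrix gene, did not exceed 0.110 FPKM in any library.

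The genes whose log2(FPKM + 1) followed Ecm1 most closely over the 9 libraries were Sh3bp5 (Pearson's r = 0.987), Lpcat1 (0.963), Galnt2 (0.962), Pik3c2a (0.961) and Cd2 (0.96), among 7917 candidates (genes tested, averaging 5 FPKM or more, predicted names left out). Sh3bp5, which encodes an exchange factor for RAB11, was at 42.8 to 43.6 FPKM in Th17-derived Th1, 20.1 to 31.3 in Th17 and 12.3 to 16.5 in Th1 cells, and like Ecm1 was lowest in replicate 3 of the Th17 group and in replicate 2 of the Th1 group. The most opposed were Wdr6 (r = -0.952), Sptlc2 (-0.949) and Reep5 (-0.948). The 9 points fall in 3 groups, so these values are a description of likeness and carry no test.

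Gata3, the lineage factor of type 2 cells (chromosome 2, 9857078 to 9890034, minus strand), was at 8.12, 6.65 and 6.03 FPKM in Th1, 8.06, 7.21 and 6.47 in Th17 and 6.28, 5.86 and 8.35 in Th17-derived Th1 cells. The groups overlapped fully, and 33.2%, 30.7% and 31.6% of tested genes had a lower mean in the same order of groups. The differences were -0.06 log2 units in Th1 minus Th17 (95% interval -0.40 to 0.28, limma adjusted p = 0.767), -0.08 in Th17-derived Th1 minus Th17 (-0.42 to 0.26, adjusted p = 0.722) and -0.02 in Th17-derived Th1 minus Th1 (-0.36 to 0.32, adjusted p = 0.934). No other fit called Gata3, and its sign changed in 3 or 4 of 24 fits per comparison, so no direction is given. Genes most like Gata3 over the 9 libraries (Prdm10, Akirin2, mt-Co2, Lrch4 and Ccdc66, r = 0.823 to 0.844) and least like it (Ndufb9, Sec24a and Aar2, r = -0.872 to -0.842) were found the same way. They are the extremes of 7917 candidates over 9 libraries and carry no test, so no link to Gata3 is read from them.

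The level of Gata3 relative to the T-bet gene differed between the groups. Tbx21, the T-bet gene, exceeded Gata3 by 10.2- to 16.1-fold in the 3 Th1 libraries and by 4.12- to 5.77-fold in the 3 Th17-derived Th1 libraries. In Th17 cells Gata3 was the higher of the 2 in replicates 1 and 2 (1.17 and 1.14 times Tbx21) and the lower in replicate 3 (0.524 times). The log2 ratio, each gene plus 1 FPKM, averaged -0.16 ± 0.59 in Th17, -2.06 ± 0.29 in Th17-derived Th1 and -3.44 ± 0.33 in Th1 cells. The 3 groups did not overlap, and each pair gave p = 0.1 in a two-sided exact permutation test, the smallest p that 3 against 3 allows. Tbx21 itself was at 67.5 to 97.3 FPKM in Th1, 6.30 to 12.3 in Th17 and 24.1 to 48.1 in Th17-derived Th1 cells, while Gata3 stayed between 5.86 and 8.35 FPKM in all 9 libraries.

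Of the other GATA factor genes, Gata1 was at 4.85 to 13.1 FPKM over the 9 libraries, about as high as Gata3, and did not pass in any comparison (limma adjusted p = 0.644 to 0.869). Gata2 did not exceed 0.0340 FPKM, and Gata4, Gata5 and Gata6 were listed at 0 in all libraries. GATA1 is best known from red cell, platelet and mast cell precursors. Of 11 markers of red cells and platelets, picked after Gata1 was seen, none reached 1 FPKM in any library and the highest was 0.831 FPKM.

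Of 20 tested GATA factors, partners and antagonists, 4 were higher and 5 lower in Th1 cells than in Th17 cells, 4 were higher and 2 lower in Th17-derived Th1 than in Th17 cells, and 3 were higher and 3 lower in Th17-derived Th1 than in Th1 cells. Among all tested genes, in the same order, 14% were higher and 28.9% lower, then 6.43% and 9.49%, then 5.67% and 4.81%. Medians of the list were -0.06, -0.08 and 0.15 log2 units, beside the -0.17, -0.12 and 0.05 of all tested genes. Maf, the factor that drives Il4 in helper cells, was lower in Th1 cells than in Th17 cells (9.22 ± 3.22 against 27.4 ± 2.40 FPKM, limma adjusted p = 0.00189) and higher in Th17-derived Th1 than in Th1 cells (41.0 ± 11.8 FPKM, log2 difference 2.04, adjusted p = 0.00237). Zfpm1, which encodes the GATA cofactor FOG-1, a known repressor of GATA3 activity, was higher in Th1 (18.2 ± 0.920 FPKM) than in Th17 (9.70 ± 1.60) and Th17-derived Th1 cells (8.48 ± 0.603; adjusted p = 0.000799 and 0.00178). Rbpj, the DNA-binding partner of Notch, was 2.74-fold higher in Th1 and 1.90-fold higher in Th17-derived Th1 than in Th17 cells. Nfil3, a factor linked to cytokine control in type 2 cells, was higher in Th17-derived Th1 than in Th17 cells (17.8 ± 0.917 against 9.68 ± 3.19 FPKM, adjusted p = 0.0217), and Gfi1, which promotes type 2 cell growth, was lower there than in Th1 cells (7.04 ± 2.31 against 15.8 ± 3.81 FPKM, adjusted p = 0.0166). Foxp3, the regulatory T cell factor, was at 10.7 ± 2.14 FPKM in Th17 and at 2.76 ± 1.46 FPKM in Th17-derived Th1 cells (adjusted p = 0.00686).

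**Figure D3:**
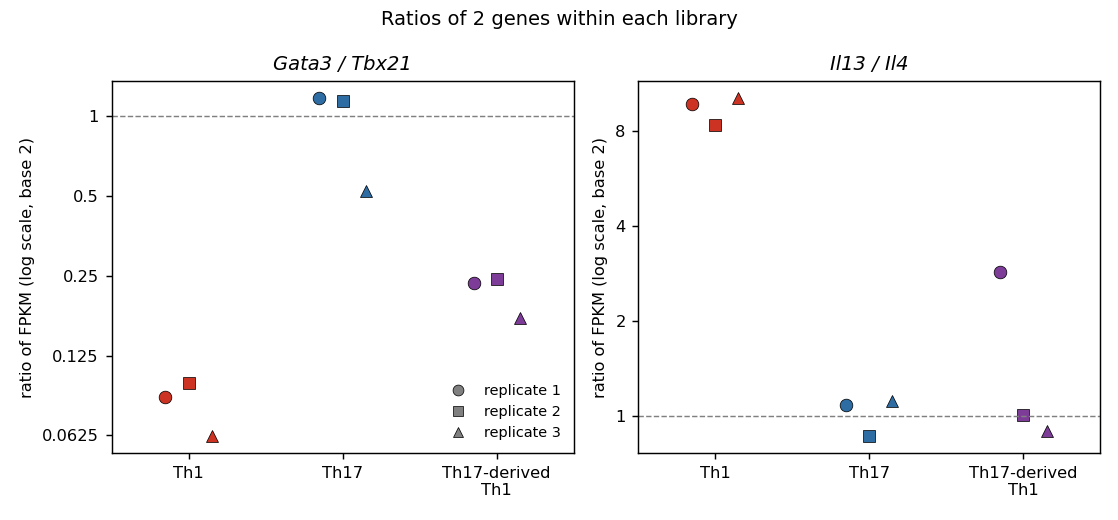
Ratio of the FPKM of 2 genes within each library (vertical axes, log scale with base 2; symbols are replicate numbers), Gata3 to Tbx21 on the left and Il13 to Il4 on the right. Gata3 to Tbx21 is lowest in Th1, intermediate in Th17-derived Th1 and highest in Th17 cells with no overlap, and Il13 to Il4 is 8.36 to 10.2 in Th1 libraries and 0.861 to 2.87 in the other 6.

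The 2 type 2 cytokine genes were low in every group. Il4, the signature cytokine of the lineage (chromosome 11, 53602982 to 53618669), was at 0.0870, 0.509 and 0.170 FPKM in Th1, 2.25, 1.25 and 2.01 in Th17 and 1.99, 2.08 and 0.390 in Th17-derived Th1 cells. Th1 libraries all lay below Th17 libraries, whereas Th17-derived Th1 replicate 3 lay below Th1 replicate 2. Il4 was lower in Th1 cells than in Th17 cells by a log2 difference of -1.17 ± 0.30 (SE, limma adjusted p = 0.014). At such low values the pseudocount sets the size: the difference was -2.59 with 0.1 FPKM added and -0.38 with 5 FPKM added, and the mean FPKM was 7.18-fold lower in Th1. The call was kept in 22 of 23 other fits and lost without Th17 replicate 1 (adjusted p = 0.0563). Between Th17-derived Th1 and Th17 cells it did not pass (-0.26, 95% interval -0.95 to 0.43, adjusted p = 0.579).

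Against Th1 cells, Il4 in Th17-derived Th1 cells did not pass either (0.91, 95% interval 0.22 to 1.60, adjusted p = 0.0912), nor in 19 of 22 other fits. Without Th17-derived Th1 replicate 3 the difference was 1.29 (adjusted p = 0.00902), and without replicate 3 of every group it was 1.24 (adjusted p = 0.0438). With array weights it was 1.31 (adjusted p = 0.000703). Over the 22 fits the adjusted p ran from 0.000703 to 0.299. Th17-derived Th1 replicate 3 is one of the libraries with much Cd8a (104 FPKM, against 17.4 and 27.4 in replicates 1 and 2 of its group). With the mean log2 level of Cd8a and Cd8b1 as a covariate the difference was 0.96 (adjusted p = 0.0635). The part of CD8 cells in this result was not tested beyond that fit.

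Il13, which encodes the cytokine of mucus production and airway reactivity (chromosome 11, 53631324 to 53634702), was at 0.850, 4.26 and 1.74 FPKM in Th1, 2.43, 1.07 and 2.24 in Th17 and 5.70, 2.10 and 0.349 in Th17-derived Th1 cells. The lowest and the highest of the 9 values both came from Th17-derived Th1 cells, and all groups overlapped. The 3 differences were 0.07, 0.09 and 0.02 log2 units with a standard error of 0.56 each (adjusted p = 0.929, 0.922 and 0.981), and intervals from -1.24 to 1.36 allow changes of more than 2-fold either way. Il13 was not called in any other fit.

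Within a library, Il13 and Il4 stood in different proportion by group. Il13 was 9.77, 8.36 and 10.2 times Il4 in the Th1 libraries, 1.08, 0.861 and 1.12 times in the Th17 libraries, and 2.87, 1.01 and 0.896 times in the Th17-derived Th1 libraries. Rescaling a library does not change these ratios. Th1 did not overlap either other group, with p = 0.1 in the exact permutation test of the log2 ratio, the smallest possible. With 1 FPKM added to each gene, as in the ratio of Gata3 to Tbx21, the exact permutation test of Th1 against Th17 still gave p = 0.1 but Th17-derived Th1 against Th1 gave p = 0.2, and the separation from that group was lost. Il4 values of 0.0870 to 0.509 FPKM stand below each ratio in Th1, and their read depth is unknown. This ratio was chosen after the values were seen.

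Both genes lie in the type 2 cytokine cluster, with Rad50 between Il13 and Il5. The start site of Il13 is 16 kb and that of Il5 102.1 kb from that of Il4. Il5, the eosinophil growth factor gene, did not exceed 0.316 FPKM in any library. Rad50, a DNA repair gene whose introns hold the control region of the cluster, was at 15.5 ± 1.83, 18.1 ± 1.74 and 14.9 ± 2.50 FPKM in Th1, Th17 and Th17-derived Th1 cells and was not called. Kif3a, on the other side of Il4 with its start site at -51.3 kb, was lower in Th1 cells than in Th17 cells (5.27 ± 0.415 against 6.87 ± 0.719 FPKM, limma adjusted p = 0.0328) and higher in Th17-derived Th1 than in Th1 cells (7.80 ± 0.459 FPKM, adjusted p = 0.0208). Irf1, an interferon-induced factor gene at the far end, was higher in Th1 (132 ± 32.7 FPKM) and Th17-derived Th1 cells (124 ± 8.29) than in Th17 cells (71.5 ± 19.9; adjusted p = 0.0119 and 0.0358). Of 6 tested genes listed for the locus, 1 was higher and 2 lower in Th1 cells than in Th17 cells, and 1 was higher and 0 lower in each of the other comparisons (list medians -0.07, 0.12 and -0.01 log2 units, in the order used above). All tested genes gave, in that order, 14% higher and 28.9% lower, then 6.43% and 9.49%, then 5.67% and 4.81%.

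**Figure D4:**
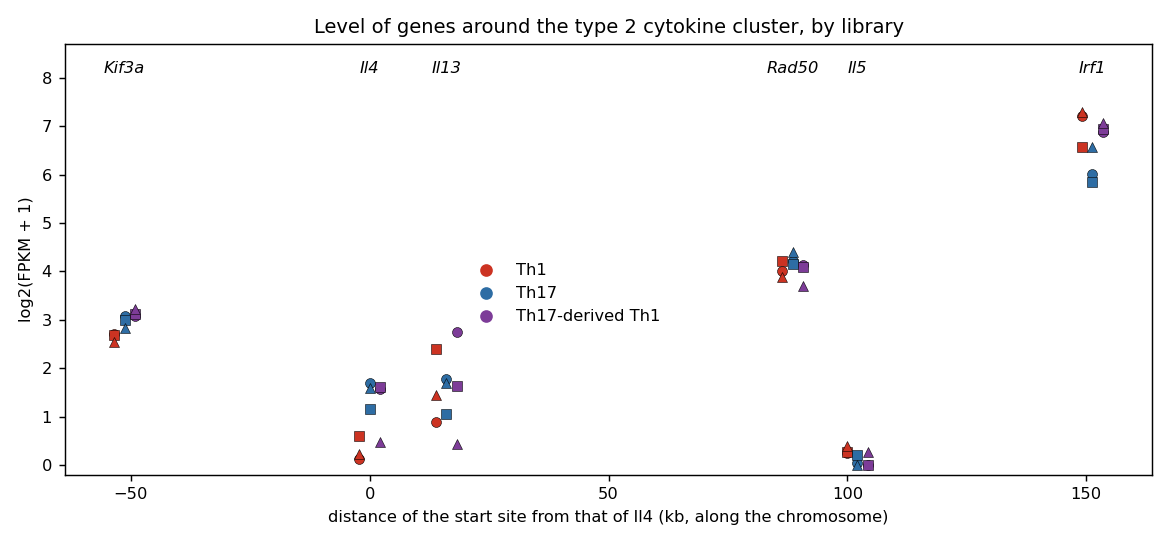
Level of 6 genes around the type 2 cytokine cluster as log2(FPKM + 1) (vertical axis) by the distance of their start sites from that of Il4 in kb (horizontal axis, groups offset sideways for legibility). Il4, Il13 and Il5 stay below 3 log2 units in all 9 libraries, and Il4 is lower in Th1 cells than in Th17 cells.

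Cytokine genes encoded outside the cluster were also read. Il21, a cytokine gene of follicular helper and Th17 cells, was at 45.3, 26.4 and 21.3 FPKM in Th17-derived Th1 cells, against 0.382 to 0.700 in Th17 and 0.913 to 1.80 in Th1 cells. All its Th17-derived Th1 libraries thus lay above the other 6, and it was 19.5-fold higher than in Th17 cells and 14.0-fold higher than in Th1 cells (limma adjusted p = 5.03e-05 and 0.000137). Il21 reached 1 FPKM in 4 libraries, the 3 Th17-derived Th1 libraries and Th1 replicate 1. It was thus tested only because that group was higher, so its calls and the list counts below are a description. Il10, a gene of an inhibitory cytokine, was at 68.9 to 107 FPKM in Th1, 91.2 to 98.8 in Th17-derived Th1 and 8.73 to 19.1 in Th17 cells, 7.21-fold higher in Th17-derived Th1 than in Th17 cells (limma adjusted p = 0.00025). Csf2 was 6.02-fold higher in the same comparison. Il9, a mast cell growth factor gene, was listed at 0 in all Th1 and Th17-derived Th1 libraries and at 1.85, 0.359 and 1.69 FPKM in Th17 cells. Of 6 tested genes on this list 3 were higher and 0 lower in Th17-derived Th1 than in Th17 cells, 1 was higher and 0 lower than in Th1 cells, and 2 were higher and 0 lower in Th1 cells than in Th17 cells. Its medians were 0.10, 1.83 and 0.58 log2 units in Th1 minus Th17, Th17-derived Th1 minus Th17 and Th17-derived Th1 minus Th1. Shares of all tested genes higher and lower were, in this order, 14% and 28.9%, 6.43% and 9.49%, and 5.67% and 4.81%.

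Il4ra, which encodes the receptor chain shared by IL-4 and IL-13 (chromosome 7, 125552120 to 125579474), was at 94.0, 88.0 and 69.4 FPKM in Th17-derived Th1, 59.2, 61.5 and 56.0 in Th17 and 44.0, 55.2 and 39.1 in Th1 cells. The groups did not overlap. Il4ra was 1.80-fold higher in Th17-derived Th1 than in Th1 cells (log2 difference 0.85 ± 0.15, SE, limma adjusted p = 0.00918), a call kept in 23 of 24 other fits and just missed without Th17-derived Th1 replicate 2 (adjusted p = 0.0501). Against Th17 cells the difference was 0.49 (95% interval 0.16 to 0.82) and fell just short (adjusted p = 0.052). It passed in 9 of 24 other fits, among them the fit with the replicate number as a block (adjusted p = 0.0262) and median-ratio scaling (adjusted p = 0.0152), and the adjusted p over all fits ran from 0.000499 to 0.162. In Th1 minus Th17 it was -0.36 (-0.69 to -0.03, adjusted p = 0.075) and passed in 6 of 24 other fits.

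Il2rg, the common gamma chain that completes the lymphocyte IL-4 receptor, had its highest libraries in the same group, at 473 to 515 FPKM in Th17-derived Th1, 359 to 465 in Th1 and 294 to 316 in Th17 cells. It was higher in Th17-derived Th1 than in Th17 cells (1.60-fold, limma adjusted p = 0.003) and did not pass against Th1 cells (adjusted p = 0.202). Il13ra1, the partner chain for IL-13, did not exceed 0.0824 FPKM, and Il13ra2, a decoy receptor gene, was listed at 0 in all 9 libraries.

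Stat6, the transcription factor activated by that receptor (chromosome 10, 127642986 to 127660957), was at 41.9, 37.2 and 41.9 FPKM in Th1, 46.5, 48.9 and 46.7 in Th17 and 40.8, 42.8 and 48.4 in Th17-derived Th1 cells. Th1 lay below Th17 in every library by a small margin (log2 difference -0.23, 95% interval -0.44 to -0.02, limma adjusted p = 0.0689), and Th17-derived Th1 cells overlapped both. The other 2 differences were -0.11 against Th17 (-0.31 to 0.10, adjusted p = 0.439) and 0.12 against Th1 cells (-0.08 to 0.33, adjusted p = 0.434). The spread of Stat6 over the 9 libraries was larger than that of only 11.5% of tested genes. Exons of Stat6 overlap those of Nab2 on the other strand, which did not exceed 17.1 FPKM, and no source used here says whether counting used strand.

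Of 16 tested genes of the STAT6 pathway, Stat6 included, 2 were higher and 3 lower in Th1 cells than in Th17 cells, 2 were higher and 1 lower in Th17-derived Th1 than in Th17 cells, and 3 were higher and 0 lower in Th17-derived Th1 than in Th1 cells. In the same order, 14% of all tested genes were higher and 28.9% lower, then 6.43% and 9.49%, then 5.67% and 4.81%. The list medians were -0.26, 0.06 and 0.29 log2 units in that order. Socs3, an inhibitor of cytokine signaling that acts mainly on the IL-6 receptor, was at 19.9 ± 1.49 FPKM in Th1 against 63.9 ± 16.7 in Th17 and 68.4 ± 3.73 in Th17-derived Th1 cells (limma adjusted p = 0.000272 and 0.000904). Ptpn6, which encodes the phosphatase SHP-1, was lower in both groups harvested from the Th1 condition (59.1 ± 8.55 and 59.3 ± 3.05 FPKM) than in Th17 cells (89.2 ± 3.50 FPKM, adjusted p = 0.00305 and 0.0085). Parp14, a coactivator of STAT6, was higher in them (29.2 ± 5.29 and 36.2 ± 3.25 against 20.2 ± 2.33 FPKM, adjusted p = 0.0216 and 0.00628). Irs2, an adaptor of the IL-4 receptor, was higher in Th17-derived Th1 than in Th1 cells (3.56 ± 0.350 against 1.76 ± 0.671 FPKM, adjusted p = 0.0384).

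Areg was low in all 3 groups. It was at 1.57, 2.14 and 1.20 FPKM in Th17-derived Th1, 0.378, 0.335 and 0.863 in Th1 and 0.0918, 0.322 and 0.154 in Th17 cells (chromosome 5, 91139599 to 91148432). No groups overlapped. Its difference was 1.14 ± 0.19 log2 units in Th17-derived Th1 minus Th17 (SE, limma adjusted p = 0.00427) and 0.79 ± 0.19 in Th17-derived Th1 minus Th1 (adjusted p = 0.0298). The pseudocount compresses values this low: the ratios of the group means were 8.65 and 3.11. The first call was kept in all 18 other fits that tested Areg and the second in 14 of 18. The second was lost with a pseudocount of 0.1 (adjusted p = 0.0576), with only the 2 groups compared (0.0672), without Th1 replicate 1 (0.0901) and without Th17 replicate 1 (0.0507). With the filter of 1 FPKM, Areg was tested only through its 3 Th17-derived Th1 libraries, so these calls and counts of fits are a description. With no filter on low values both calls stood (adjusted p = 0.00673 and 0.0353). Th1 minus Th17 did not pass (0.35, 95% interval -0.07 to 0.77, adjusted p = 0.156).

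Of 19 genes of the epidermal growth factor family, its receptors and the proteases that release its ligands, 7 were tested. Hbegf, another ligand, averaged 3.30 ± 1.23 FPKM in Th17-derived Th1, 3.01 ± 3.06 in Th1 and 1.03 ± 0.436 in Th17 cells and was not called. Adam17, the protease that releases amphiregulin, was higher in Th1 than in Th17 cells (28.0 ± 5.17 against 18.5 ± 0.0917 FPKM, limma adjusted p = 0.00994), and Rhbdf2, which brings ADAM17 to the cell surface, was higher in Th1 and Th17-derived Th1 (35.1 ± 5.29 and 26.9 ± 4.54) than in Th17 cells (16.1 ± 3.57 FPKM, adjusted p = 0.00171 and 0.0269). Egfr did not exceed 0.520 FPKM in any library. Areg and Rhbdf2 were the 2 genes of this list called in Th17-derived Th1 against Th17 cells, both higher, and Areg the 1 called against Th1 cells. Median differences of the 7 tested genes were 0.35, 0.20 and 0.09 log2 units in Th1 minus Th17, Th17-derived Th1 minus Th17 and Th17-derived Th1 minus Th1. Over all tested genes, in this order, 14% were higher and 28.9% lower, then 6.43% and 9.49%, then 5.67% and 4.81%.

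Receptors and other genes known from type 2 helper cells, among them the enzyme gene Hpgds, the nuclear factor gene Pparg and Plac8, did not follow 1 order. Of 13 tested, 6 were higher and 2 lower in Th17-derived Th1 than in Th17 cells, 5 were higher and 1 lower than in Th1 cells, and 5 were higher and 4 lower in Th1 cells than in Th17 cells. In the same order, 6.43% of all tested genes were higher and 9.49% lower, then 5.67% and 4.81%, then 14% and 28.9%. The list medians were 0.37, 0.49 and -0.0012 log2 units in that order. Cysltr1, a leukotriene receptor gene, was at 23.6, 18.1 and 9.61 FPKM in Th17-derived Th1 against 2.81 to 4.98 in Th17 and 2.75 to 3.39 in Th1 cells (limma adjusted p = 0.00404 and 0.00379). Tnfrsf8, which encodes CD30, and Icos, a costimulatory receptor gene, were also higher in Th17-derived Th1 than in Th17 cells (12.5-fold and 2.26-fold) and than in Th1 cells (2.65-fold and 1.56-fold). Il1rl1, which encodes the IL-33 receptor ST2, was instead highest in Th1 cells, at 47.3 to 61.7 FPKM against 13.0 to 27.9 in Th17-derived Th1 and 0.872 to 2.15 in Th17 cells. Ccr8 and Hpgds, a chemokine receptor gene and a prostaglandin D synthase gene, were highest in Th17 cells (22.6 ± 7.68 and 5.67 ± 1.43 FPKM, against 2.54 ± 1.27 and 0.383 ± 0.106 in Th17-derived Th1 cells). Hpgds reached 1 FPKM only in the 3 Th17 libraries. It was thus tested only because that group was higher, and its part in the counts of this list is a description. Ptgdr2, which encodes CRTH2, a defining receptor of type 2 cells, did not exceed 0.768 FPKM, and Il17rb and Ccr3 stayed below 1 FPKM in all 9 libraries.

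**Figure D5:**
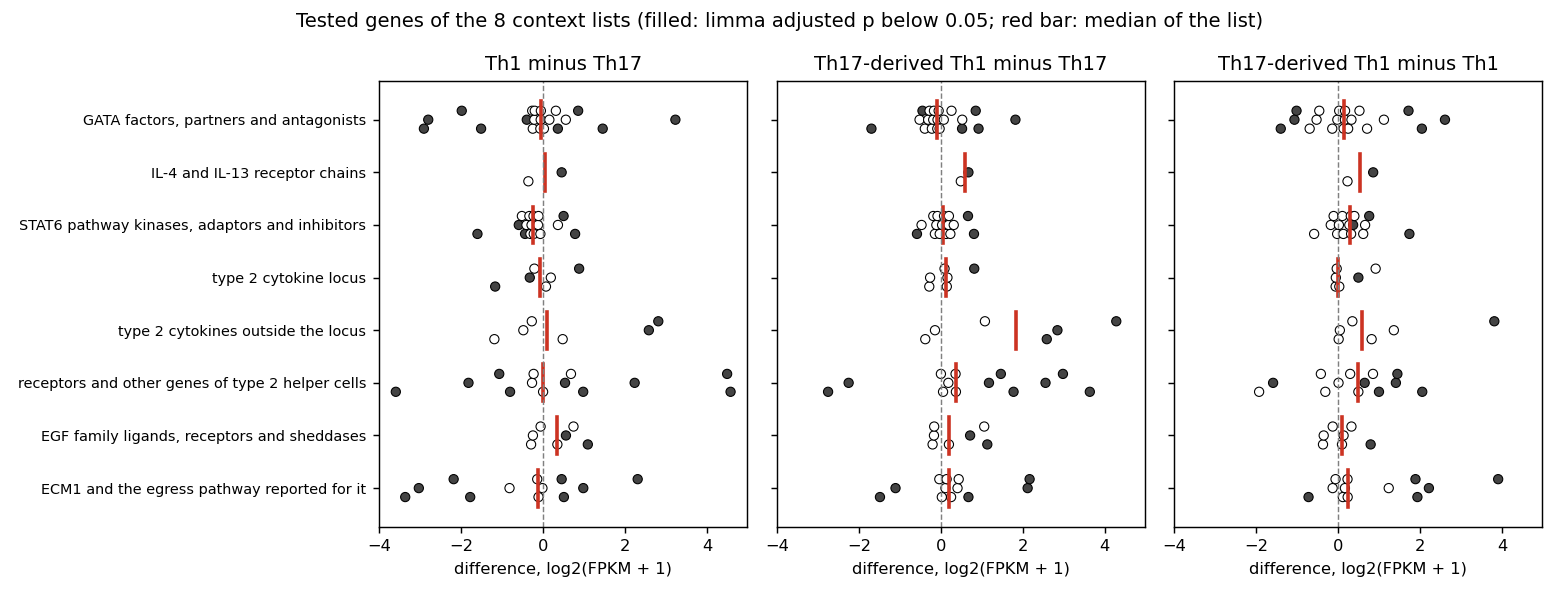
Differences of mean log2(FPKM + 1) for the tested genes of 8 lists related to the 7 genes (points, horizontal axis), in the 3 comparisons; filled points passed an adjusted p of 0.05 and red bars are list medians. Called genes lie on both sides of 0 in the list of GATA factors, partners and antagonists and in the list of receptors and other type 2 cell genes in all 3 panels.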

How the data were processed

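Messenger RNA libraries of 9 samples were analysed, and their titles gave group and replicate number. The authors deposited FPKM for 22017 gene symbols in 9 libraries, with 15 symbols turned into dates. Per the submitters' processing notes, the genome build mm10 and the tools HISAT2 and DESeq2 were involved; no source used here gives a version, a role or the annotation. Whole reads could not be recovered from low FPKM values (0.955% to 1.54% of low genes shared the commonest log2 ratio of 2 libraries, within 0.01), so read depth is unknown and no counting interval is given. Libraries summed to 382581 to 405985 FPKM. No 2 columns were identical.

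limma 3.58.1 (R 4.3.3) with a mean-variance trend was fitted to log2(FPKM + 1) of all 9 libraries (6 residual degrees of freedom), after a filter of at least 1 FPKM in at least 3 libraries. The fit was tested on simulated data. Ratios were compared with exact permutation tests in Python 3.11.15. Positions come from GENCODE M21 (GRCm38), and promoter windows from RefSeq (GRCm38.p6), where 7 of 7 genes matched. Named genes were the 7 members, up to 4 called genes per direction of each list and comparison, and the 5 most and 3 least correlated with Gata3 and Ecm1; further genes in the text illustrate a list. The members, lists and alternatives were chosen with earlier results of these data known.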

Additional observations from a re-analysis of the deposited data

How the results depend on the processing

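Directions and calls of Ecm1 held in every alternative fitted, and those of the Gata3 to Tbx21 ratio kept their direction (for example -3.63 to -3.11, -2.25 to -1.73 and 1.20 to 1.55 log2 units with 1 library left out, in Th1 against Th17, Th17-derived Th1 against Th17 and Th17-derived Th1 against Th1 cells). Counts of calls moved more, and the cause was not tested. In Th1 against Th17 cells, 1478 genes were higher and 3048 lower; median-ratio scaling gave 2047 and 1752, so that higher calls outnumbered lower ones; lower genes numbered 1916 without replicate 3 of every group, array weights gave 2234 and 4882, and an adjusted p of 0.01 gave 905 and 1584. Members lower there were 2, but 4 with equal sums or array weights (Il4ra and Stat6 added, and 1 member, Areg, higher with array weights) and 1 at 0.01 or where Il4 was filtered out by at least 1 FPKM in all 9 libraries. In Th17-derived Th1 against Th17 cells, 678 were higher and 1000 lower; median-ratio scaling gave 852 and 498, quantile normalization 750 and 625, omission of replicate 3 514 and 522, array weights 1579 and 3024, and 0.01 gave 352 and 316. Members higher there were 2, but 3 with median-ratio scaling, a pseudocount of 5, only the 2 groups, array weights or the Cd8a and Cd8b1 covariate (Il4ra added), and 1 where Areg was filtered out (at least 1 FPKM in all 9 libraries, or a mean of at least 1 FPKM). In Th17-derived Th1 against Th1 cells, 597 were higher and 507 lower; a fit of only these 2 groups gave 390 and 302, array weights 3419 and 2011, 0.01 gave 190 and 117, and omission of replicate 3 gave 290 and 306.

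With 1 library left out, higher and lower genes ranged from 1057 to 1662 and 1938 to 3738 in Th1 against Th17, 379 to 889 and 302 to 1453 in Th17-derived Th1 against Th17, and 195 to 1067 and 120 to 794 in Th17-derived Th1 against Th1 cells. Members lower ranged from 1 to 3 in the first, and members higher from 1 to 3 in both others. The lowest counts came without Th17 replicate 1 against Th1 cells (Il4 lost), without Th17-derived Th1 replicate 1 or 2 against Th17 cells (Areg no longer tested) and without Th17-derived Th1 replicate 2 against Th1 cells (Areg no longer tested, Il4ra at an adjusted p of 0.0501). Areg could not be tested either without replicate 3 of every group or without Th17-derived Th1 replicate 3, because it then reached 1 FPKM in too few libraries.

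Deviations from the group mean correlated at -0.178 to 0.659 over 9 pairs of libraries from different groups with the same number. Over 18 pairs with different numbers they correlated at -0.646 to 0.459. The labels state no pairing, so the main fits did not take the numbers as pairs. Whether a number marks a shared source was not tested, and Cd8a rose from replicate 1 to replicate 3 in each group. With a replicate block, members lower in Th1 than in Th17 cells numbered 3 and members higher in Th17-derived Th1 cells 3 against Th17 and 3 against Th1 cells, with Il4ra added in the first 2 comparisons; genes called numbered 1482 and 2970, 745 and 936, and 634 and 621.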

Other observations

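Il24, a cytokine gene on the list of type 2 cytokines encoded outside the locus, passed in no comparison, but its libraries differed widely: it was at 1.80, 28.7 and 2.67 FPKM in Th1, 4.31, 5.27 and 15.3 in Th17 and 24.3, 17.7 and 9.82 in Th17-derived Th1 cells. Th1 replicate 2, with the most Il24 of all libraries, also had the most Il13 and Il4 of its group (4.26 and 0.509 FPKM) and the most Il4ra (55.2 FPKM), but the least Ecm1 (6.31 FPKM) and the least Tbx21 (67.5 FPKM) of the Th1 libraries. In Th17-derived Th1 cells, replicate 3 had the least Il24, Il13, Il4, Il4ra, Areg and Ecm1 of its group and the most Gata3, Tbx21 and Cd8a (8.35, 48.1 and 104 FPKM).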
